A study of Mus musculus with 16 samples.

Results

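The genes described here are 37 genes of glycolysis, lactate transport and the hypoxia response, out of 50686 gene identifiers counted in each of 16 RNA sequencing libraries. They were chosen by function, with earlier results of these data known. They comprise 2 glucose transporters, 9 enzymes of upper and 6 of lower glycolysis, 2 lactate dehydrogenases, 2 lactate transporters and 3 regulators of glycolytic flux. The others are 3 subunits of the hypoxia-inducible factors (HIF), 3 genes of oxygen sensing and HIF turnover, and 7 HIF targets. The libraries came from 8 mouse B-cell precursor leukaemia lines, made by retroviral transduction of bone marrow with the BCR-ABL1 p185 oncogene; the 4 control lines (called wildtype in the labels, Cdk8 fl/fl in the study) carry an intact Cdk8 gene, and the 4 Cdk8Δ/ΔVav-Cre lines (Cdk8 KO in the labels) had Cdk8 deleted by a Cre recombinase driven in all blood cells. Each line was kept for 48 h in DMSO (0.01%) or in 1 µM Senexin B, an inhibitor of the kinases CDK8 and CDK19, which gives 4 groups of 4 libraries. All 8 lines thus share the oncogene, its viral vector and the C57BL/6N background. Each line was individually derived and then grown in culture, so lines differ by more than their genotype. The comparisons ask whether loss of CDK8 or inhibition of its kinase changed transcript levels of these genes.

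Glycolysis turns glucose into pyruvate in the cytosol. Glucose enters through the facilitative transporters, hexokinases trap it, phosphofructokinase commits it, and the lower enzymes recover ATP and NADH. Lactate dehydrogenase then reduces pyruvate to lactate, which leaves the cell through monocarboxylate transporters. Pyruvate dehydrogenase kinases restrain the conversion of pyruvate to acetyl-CoA in mitochondria. HIF is a pair of proteins, an oxygen-regulated alpha subunit (Hif1a or Epas1) and the constant partner Arnt. With oxygen present, the EGLN prolyl hydroxylases mark the alpha subunit for the VHL ubiquitin ligase. When oxygen is low the pair binds DNA at ACGTG or GCGTG and raises transcription of many glycolytic genes and of genes for vessel growth, mitochondrial turnover and collagen modification. CDK8 belongs to the kinase module of Mediator and has been described as a coactivator of HIF target genes. BCR-ABL1-transformed lymphoid cells are known for strong glycolysis.

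Library totals ran from 13145876 to 18349425 counts, and levels are given as CPM, counts per 1000000 counts of the library total after TMM scaling. All 14 B-cell precursor markers examined were at 1 CPM or more in at least 1 of the 16 libraries, and their summed level ran from 7156 to 12421 CPM. Rag2 fell to 0.14 CPM and Dntt to 0.86 CPM in their lowest library, and the other B-cell precursor markers stayed above 1 CPM. Markers of other cells were mostly low: 6 of 8 T-cell markers, 8 of 10 myeloid markers and 5 of 7 erythroid markers stayed under 1 CPM in every library. So did 2 of 4 megakaryocyte markers and 6 of 7 endothelial and stromal markers. The exceptions were Lck (17.5 to 133 CPM), Hbb-bt (2.76 to 264 CPM), Cd68 (3.62 to 13.01 CPM) and Lyz2 (up to 24.6 CPM). Lower exceptions were Gp9 (up to 2.45 CPM), Pdgfrb (up to 2.15 CPM), Trac (up to 1.66 CPM), Klf1 (up to 1.32 CPM) and Itga2b (up to 1.16 CPM). The part of these exceptions in the results was not tested. Cdk8 itself was at 61.8 to 68.7 CPM in the control lines and 35.3 to 52.1 CPM in the knockout lines in DMSO, without overlap. With Senexin B the ranges were 55.2 to 89.4 and 41.2 to 61.7 CPM and overlapped. The counts cover every exon of Cdk8, deleted or not, so this checks the labels only in part. In bulk RNA, fewer cells of a type and less RNA per cell cannot be told apart.

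The 8 most abundant of the 37 transcripts were of glycolysis and lactate transport, with the exception of Vegfa. Other genes of these classes were far lower, down to Slc16a3 (0.33), Eno2 (0.03) and Ldhb (0.01) on the scale used below. Levels between genes are compared as mean CPM over 16 libraries per kilobase of exon. On that scale the lactate and pyruvate transporter Slc16a1 was highest (110), followed by the aldolase Aldoa (108), lactate dehydrogenase A (Ldha, 89.8) and the vessel growth factor Vegfa (87.8). Next came Gpi1 (52.2), Pkm (44.8), Tpi1 (43.1) and Eno1 (42.4), the enzymes for isomerisation of glucose-6-phosphate and triose phosphates and for the last steps to pyruvate. Each of these 8 transcripts was at 71.9 CPM or more in every library.

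Among the regulators, Hif1a was the more abundant transcript of the HIF alpha subunits. It stood at 29.7 CPM per kilobase, against 0.32 for Epas1 (HIF-2α) and 10.9 for their partner Arnt. The hydroxylase Egln1 was at 18.7, the ligase Vhl at 10.7 and the HIF-induced hydroxylase Egln3 at 6.06 CPM per kilobase. Pfkfb3, which makes the activator of phosphofructokinase, was at 22.2, and its relative Pfkfb4 at 1.12. The pyruvate dehydrogenase kinase Pdk1 was at 15.8, the glucose transporters Slc2a1 at 14.4 and Slc2a3 at 3.35, and the collagen hydroxylase P4ha1 at 14.0 CPM per kilobase.

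Of the 3 phosphofructokinase subunits, Pfkp led (11.4 CPM per kilobase), ahead of Pfkm (8.31) and Pfkl (2.99). Of the hexokinases, Hk1 (5.49) was above Hk2 (3.18). The histone demethylase Kdm3a was at 9.94, the mitophagy receptor Bnip3 at 5.97, Ndrg1 at 2.81 and Aldoc at 2.84 CPM per kilobase. Low levels were found for Ankrd37 (0.59), Pgam1 (0.47) and the lactate exporter Slc16a3 (0.33). The order between neighbours is loose, since the ranges over 16 libraries overlapped for each of the 36 neighbouring pairs. Slc16a1, for example, ran from 70.0 to 158 and Aldoa from 40.4 to 186 CPM per kilobase.

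**Figure D1:**
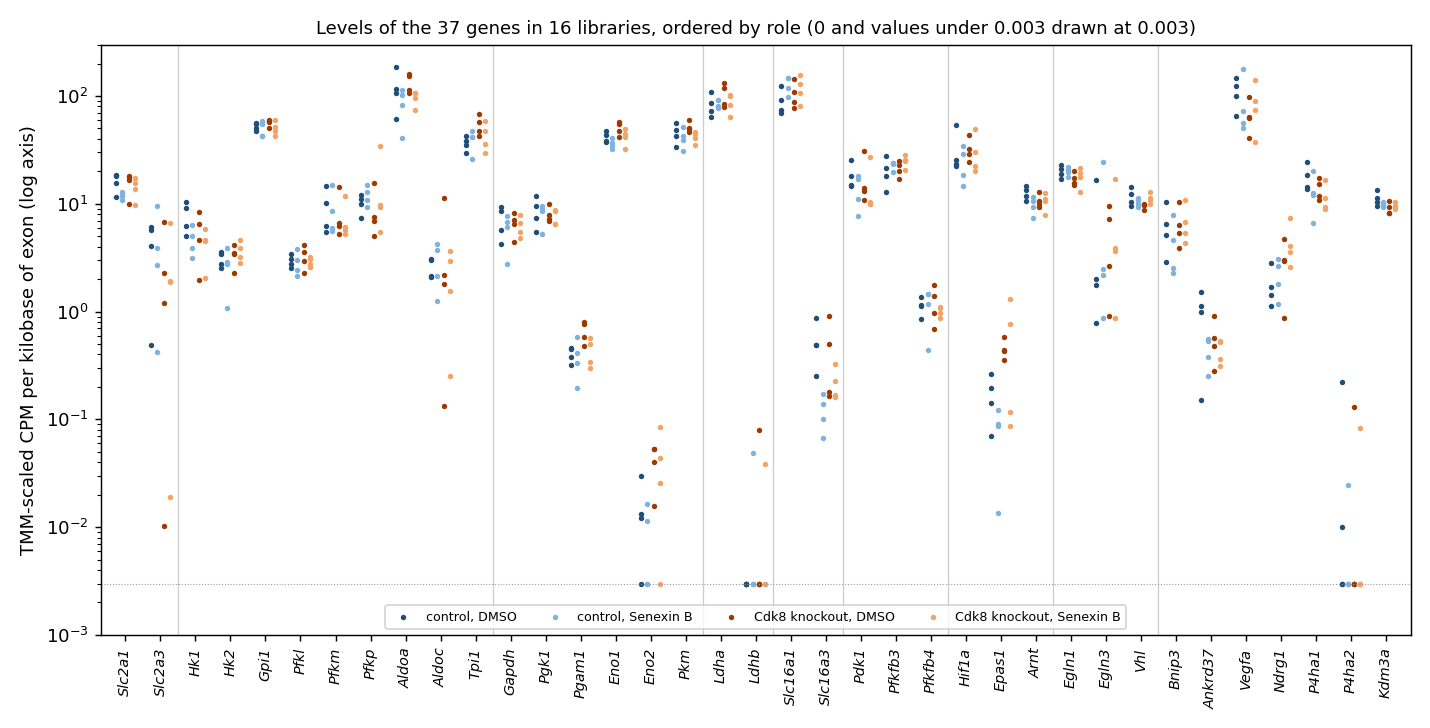
Level of each of the 37 genes in each of the 16 libraries as TMM-scaled CPM per kilobase of exon, on a log axis, with the genes ordered by role and values under 0.003 drawn at 0.003. Each point is a library, coloured by genotype and treatment; among the 34 genes past the low-count filter, Slc2a3, Aldoc, Egln3 and Epas1 spread most between lines, while Vhl and Gpi1 lie close together.

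Ldhb, Eno2 and P4ha2 were hardly detected. Ldhb had 0 to 2 counts a library, Eno2 0 to 7 and P4ha2 0 to 20, and none of these passed the low-count filter in any comparison. Epas1 passed it in the comparisons that hold the knockout DMSO libraries or all 16 libraries, and not in the other 2. Over all 16 libraries 34 of the 37 genes passed, among 14164 genes in all. Some of the low values also depend on how reads were assigned. The share of a gene's 50-base exon stretches that another annotated gene also holds was 53.9% for Pgk1, 47.2% for Bnip3, 36.2% for Pgam1 (its pseudogenes Pgam1-ps1 and Pgam1-ps2), 26.0% for Eno1 (Eno1b), 25.8% for Pkm and 25.1% for Gapdh. Reads that map to several places were not counted, so the means of 26.4 CPM for Gapdh and 18.1 CPM for Pgk1 are uncertain and may be too low. Ankrd37 shares 26.4%, Bnip3 22.2%, Pkm 15.3% and Gpi1 11.5% of their exon bases with overlapping genes. The counting used no option for strand or overlap, so reads in such bases were not assigned and these levels may also be too low. For Slc16a3, Slc16a1, Epas1, Pdk1, Arnt, Egln1, Vhl, Hk2 and P4ha1 no such stretch was found.

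The promoters of Slc16a3, Ankrd37, Slc2a1 and P4ha1 are shown as examples, chosen after their values were seen, of genes that were lower with Senexin B in control lines 2 to 4 and whose promoters hold the letters that HIF binds. Each sequence is the RefSeq window of 300 bases on GRCm38.p6, from 250 bases before the start of the transcript to 50 after it, read on the gene's strand, with ACGTG or GCGTG on either strand in capitals.
Slc16a3, chr11:120948817-120949116, plus strand: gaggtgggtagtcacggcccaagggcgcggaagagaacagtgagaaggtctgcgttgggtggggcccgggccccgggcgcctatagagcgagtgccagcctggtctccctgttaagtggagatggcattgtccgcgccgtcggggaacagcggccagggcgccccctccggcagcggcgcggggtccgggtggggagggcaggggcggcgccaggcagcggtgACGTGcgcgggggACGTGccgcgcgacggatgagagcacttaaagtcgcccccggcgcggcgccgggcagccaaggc
Ankrd37, chr8:45999801-46000100, minus strand: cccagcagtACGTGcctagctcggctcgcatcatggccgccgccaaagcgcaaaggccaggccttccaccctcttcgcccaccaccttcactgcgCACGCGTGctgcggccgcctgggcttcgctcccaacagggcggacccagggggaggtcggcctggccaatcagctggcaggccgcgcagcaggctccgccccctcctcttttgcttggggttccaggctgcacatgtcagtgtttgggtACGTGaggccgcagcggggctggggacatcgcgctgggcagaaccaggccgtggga
Slc2a1, chr4:119108495-119108794, plus strand: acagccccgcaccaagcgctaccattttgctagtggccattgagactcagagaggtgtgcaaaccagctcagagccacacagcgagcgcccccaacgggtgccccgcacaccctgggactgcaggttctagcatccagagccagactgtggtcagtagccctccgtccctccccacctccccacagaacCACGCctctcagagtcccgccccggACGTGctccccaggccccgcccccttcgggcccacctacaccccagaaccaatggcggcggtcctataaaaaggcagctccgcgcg
P4ha1, chr10:59323046-59323345, plus strand: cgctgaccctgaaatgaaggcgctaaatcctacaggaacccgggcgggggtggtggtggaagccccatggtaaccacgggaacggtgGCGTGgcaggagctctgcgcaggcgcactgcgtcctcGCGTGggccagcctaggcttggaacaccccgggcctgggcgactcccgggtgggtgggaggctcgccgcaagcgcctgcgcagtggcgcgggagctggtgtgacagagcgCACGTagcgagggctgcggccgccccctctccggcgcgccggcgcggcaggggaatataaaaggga
The Slc16a3 window holds ACGTG 2 times, at 27 and 14 bases before the start. The Ankrd37 window holds ACGTG at 241 and 6 bases before the start and GCGTG on both strands between them, where the matches overlap. In the Slc2a1 window there is 1 match of each kind, and in the P4ha1 window 1 ACGTG and 2 GCGTG. Genes without that direction hold the letters too. The Slc16a1 window has 3 ACGTG and 2 GCGTG, and Slc16a1 was higher in control lines 2 to 4. A window of Ldha has 5 ACGTG and 2 GCGTG, and Ldha was higher in control lines 1, 2 and 4.

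RefSeq windows were found for 34 of the 37 genes, 50 windows in all, and not for Slc2a3, Epas1 and Ndrg1. At least 1 ACGTG was present in 25 of these 50 windows (50.0%), against 19.6% of the 32851 windows of the same length in the table. Either motif was present in 76.0% of the members' windows and 43.8% of all windows. GCGTG, with or without ACGTG, was found in 32.4% of all windows, and 2 or more ACGTG in 8.2%. Many members were listed as known HIF targets, so this share describes the list, and a match is neither a bound site nor a cause.

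Between genotypes in DMSO, no transcript of glycolysis or the hypoxia response was called, where a call needed an adjusted p under 0.05 over all genes tested (edgeR quasi-likelihood test, Benjamini-Hochberg) and a change of over 2-fold. In this comparison 1 of 13174 genes tested was called (0.00759%), and DESeq2 called 32 genes and no member. Of 34 members tested, 17 were higher and 17 lower in the knockout lines, with a median log2 difference of 0.004 against 0.002 for all genes. An unadjusted p under 0.05 was reached by 3 members that were higher (background 2.38% of genes) and by 1 that was lower (2.94%). These were Epas1, Pgam1 and Tpi1, which were higher, and Vegfa, which was lower.

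Epas1 encodes the HIF-2α subunit. In DMSO the control lines 1 to 4 had 1.04, 0.755, 0.376 and 1.40 CPM, from 7 to 20 counts, and the knockout lines had 2.31, 1.88, 2.35 and 3.09 CPM, from 30 to 42 counts. All 4 knockout lines lay above all 4 control lines, as did 1.48% of all genes tested. Epas1 passed the low-count filter only in comparisons that hold the knockout DMSO libraries, where it was higher. The lack of overlap is therefore not separate support for a difference. The fitted log2 difference was 1.43 ± 0.40 (SE; unadjusted p = 0.00686, adjusted p = 0.897 by edgeR), so it was not called. With Senexin B the knockout lines had 0.46, 0.619, 6.98 and 4.11 CPM and the control lines 0.072 to 0.655 CPM. Knockout lines 1 and 2 were then within the control range, so the groups overlapped.

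Pgam1, the phosphoglycerate mutase, was the other member without overlap in DMSO. The control lines had 0.694, 0.818, 0.59 and 0.84 CPM and the knockout lines 0.873, 1.06, 1.46 and 1.40 CPM. These values rest on 11 to 23 counts each and on a gene that shares reads with pseudogenes. The log2 difference was 0.71 ± 0.29 (SE; unadjusted p = 0.0383, adjusted p = 0.897 by edgeR). No member had all 4 knockout lines below all 4 control lines, where 1.66% of genes did.

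Tpi1, triose phosphate isomerase, was at 97.3, 81.0, 117 and 106 CPM in the control lines and at 157, 130, 117 and 190 CPM in the knockout lines. Knockout line 3 was level with the highest control line. The log2 difference was 0.56 ± 0.18 (SE; unadjusted p = 0.0131, adjusted p = 0.897 by edgeR). Vegfa, the growth factor for blood vessels and a classical HIF target, was at 283, 530.1, 636 and 428 CPM in the control lines and at 277, 267, 416 and 176 CPM in the knockout lines. Control line 1 stood with the knockout lines, apart from the other control lines. The log2 difference was -0.72 ± 0.31 (SE; unadjusted p = 0.0469, adjusted p = 0.897 by edgeR), and it was -0.06 with Senexin B.

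**Figure D2:**
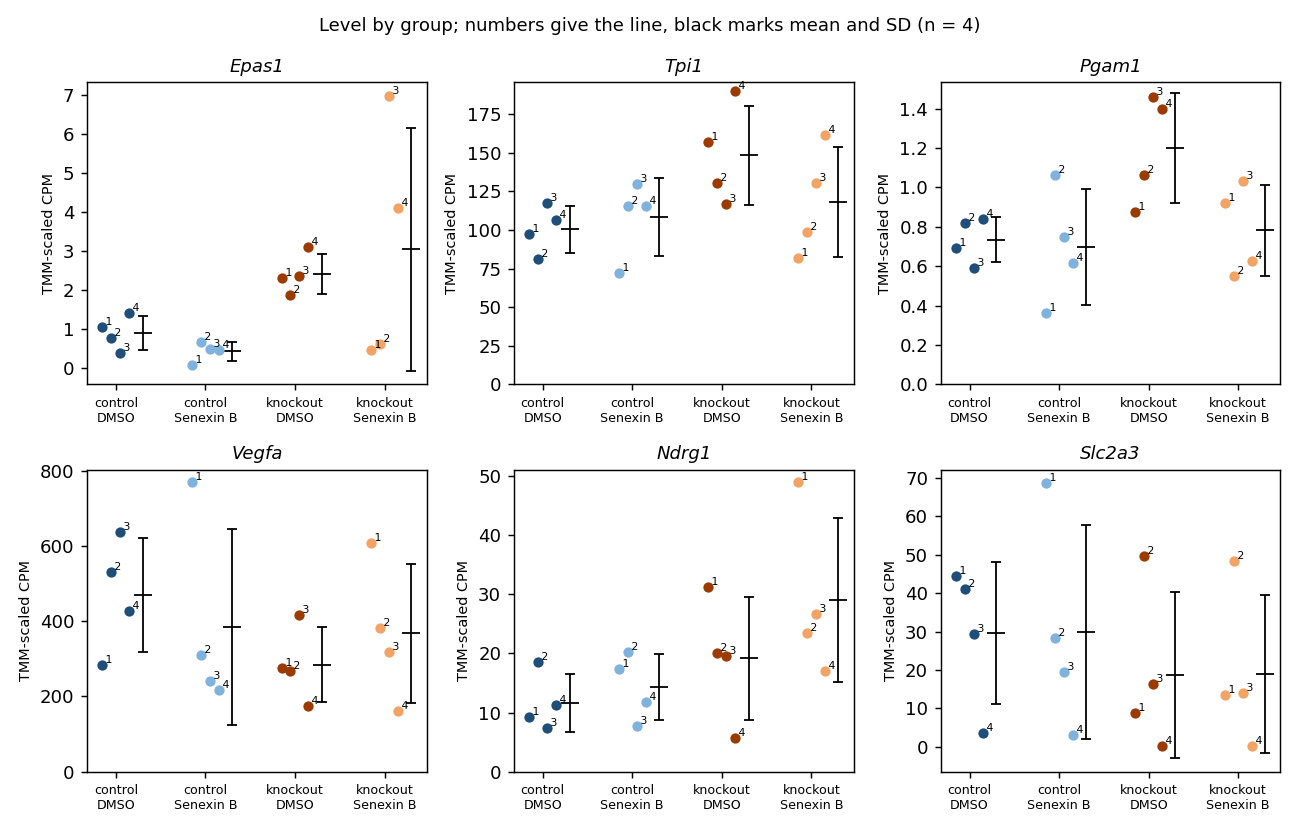
TMM-scaled CPM of Epas1, Tpi1, Pgam1, Vegfa, Ndrg1 and Slc2a3 in the 4 libraries of each group of genotype and treatment; numbers give the line and black marks the mean ± SD (n = 4). In DMSO the Epas1 points of the knockout lines (1.88 to 3.09) lie above those of the control lines (0.376 to 1.40), and Slc2a3 differs more between lines than between groups.

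With Senexin B present in both genotypes, again no member was called, and 0 of 13010 genes were (DESeq2: 10 genes, no member). The median log2 difference was 0.036 over 33 members, 21 of them higher, against -0.004 over all genes. For no member did all 4 lines of a genotype lie beyond all 4 of the other, which 0.546% of genes had with the knockout lines above and 0.453% with the knockout lines below. Ndrg1 was the 1 member that had an unadjusted p under 0.05 (1.55% of genes had). Ndrg1, a stress-induced gene that HIF activates, was at 17.3, 20.3, 7.71 and 11.9 CPM in the treated control lines and 48.9, 23.5, 26.7 and 17.1 CPM in the treated knockout lines. Knockout line 4 was within the control range, and the log2 difference was 1.03 ± 0.40 (SE; unadjusted p = 0.0315, adjusted p = 1.00 by edgeR). The 17 glycolytic enzymes, summed per library, came to 1885 ± 284 CPM (SD, n = 4) in control and 2142 ± 218 CPM (SD, n = 4) in knockout lines in DMSO, and their ranges overlapped.

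In the control lines, Senexin B went with a lower level of the lactate exporter Slc16a3, and the members as a group leaned downward. Without regard to the line, no member and 0 of 12989 genes were called by edgeR, with 493 genes (3.8%) and 3 members at an unadjusted p under 0.05, and DESeq2 called 19 genes and no member. The 2 libraries of a line deviated together from their group means, so the fit with the line as a block compares each line with itself. In that fit 45 genes were called (0.346%), and 1 of 33 members tested, Slc16a3, was among them. The median log2 change of the members was -0.16 (24 lower, 9 higher), against 0.005 for all genes, of which 49.2% were lower. An unadjusted p under 0.05 in the block fit was reached by 6 members that were lower (5.39% of genes) and 1 that was higher (4.95%). Lower in all 4 control lines were 8 members (9.46% of genes were), namely Hk1, Aldoa, Eno1, Pkm, Slc16a3, Arnt, P4ha1 and Kdm3a. Ndrg1 alone was higher in all 4 (8.38% of genes).

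Slc16a3 (MCT4, ENSMUSG00000025161.16, chr11:120948480-120960868 in GRCm38) exports lactate from glycolytic cells and is a known HIF-1 target; its promoter is printed above. In the control lines 1 to 4 it was at 1.33, 2.58, 4.61 and 2.59 CPM in DMSO and at 0.36, 0.737, 0.91 and 0.539 CPM with Senexin B. The underlying counts were 23, 41, 86 and 37 in DMSO and 5, 9, 17 and 7 with the inhibitor. It was lower in each line, and all 4 treated libraries lay below all 4 DMSO libraries, as 1.31% of genes did (0.847% lay above). Slc16a3 passed the low-count filter through its DMSO libraries, the group where it was high. The lack of overlap is therefore not separate support for a change. With the line as a block Slc16a3 fell by 2.08 ± 0.29 on the log2 scale (SE; adjusted p = 0.0315 by edgeR). Without the block the log2 change was -2.09 ± 0.46 (SE; unadjusted p = 0.00148, adjusted p = 1.00). The log2 change was -2.17 to -1.96 when a line was left out of the block fit, and the adjusted p was then 0.00344 without control line 1, 0.324 without line 2, 0.218 without line 3 and 0.0943 without line 4. The call was thus lost when line 2, 3 or 4 was left out, which also leaves fewer libraries. DESeq2 with the block gave a log2 change of -2.10 (adjusted p = 0.00168).

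Slc16a1 (MCT1), which carries lactate and pyruvate in both directions and is the abundant transporter of these lines, did not share that direction. It was at 549, 326, 403 and 310.0 CPM in DMSO and at 531, 432, 650.3 and 651 CPM with Senexin B. Lines 2 to 4 were higher and line 1 was slightly lower. The log2 change in the block fit was 0.54 ± 0.20 (SE; unadjusted p = 0.0283, adjusted p = 0.407 by edgeR), and without the block the unadjusted p was 0.0521.

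At the entry to glycolysis, Hk1, the hexokinase of most tissues, was at 88.8, 53.6, 77.3 and 42.6 CPM in DMSO and at 43.4, 33.3, 54.6 and 26.9 CPM with Senexin B. It was lower in every control line, although the groups overlapped. The log2 change was -0.71 ± 0.15 in the block fit (SE; adjusted p = 0.127 by edgeR) and -0.72 ± 0.30 without the block (unadjusted p = 0.0383), so it was not called. The glucose transporter Slc2a1 (GLUT1) was at 40.6, 54.5, 64.6 and 63.9 CPM in DMSO and 42.8, 37.7, 45.1 and 41.3 CPM with the inhibitor. Line 1, the lowest in DMSO, was not lower after treatment. Its log2 change was -0.39 ± 0.17 in the block fit (SE; unadjusted p = 0.0444, adjusted p = 0.472) and -0.41 ± 0.18 without it (unadjusted p = 0.0485).

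Aldoa, the muscle-type aldolase, was at 228, 433, 404 and 698 CPM in DMSO and at 152, 432, 311 and 382 CPM with Senexin B. Line 2 was level and the other 3 lines were lower. The log2 change was -0.45 ± 0.18 (SE; unadjusted p = 0.0371, adjusted p = 0.449 in the block fit of edgeR). Without the block it was -0.46 (unadjusted p = 0.272), and it ran from -0.68 without the DMSO library of line 1 to -0.14 without that of line 4. Arnt, the HIF partner subunit, was at 93.9, 107, 117 and 85.4 CPM in DMSO and 85.5, 75.5, 92.4 and 59.6 CPM with the inhibitor. It was lower in every line, with a log2 change of -0.36 ± 0.14 (SE; unadjusted p = 0.0320, adjusted p = 0.425). P4ha1, a prolyl hydroxylase of collagen and a HIF target, was at 102, 56.8, 75.5 and 58.8 CPM in DMSO and 83.5, 51.6, 49.7 and 27.5 CPM with Senexin B. Line 4 differed most, and the log2 change was -0.52 ± 0.19 (SE; unadjusted p = 0.0224, adjusted p = 0.366). Without the block the unadjusted p was 0.0803 for Arnt and 0.208 for P4ha1.

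**Figure D3:**
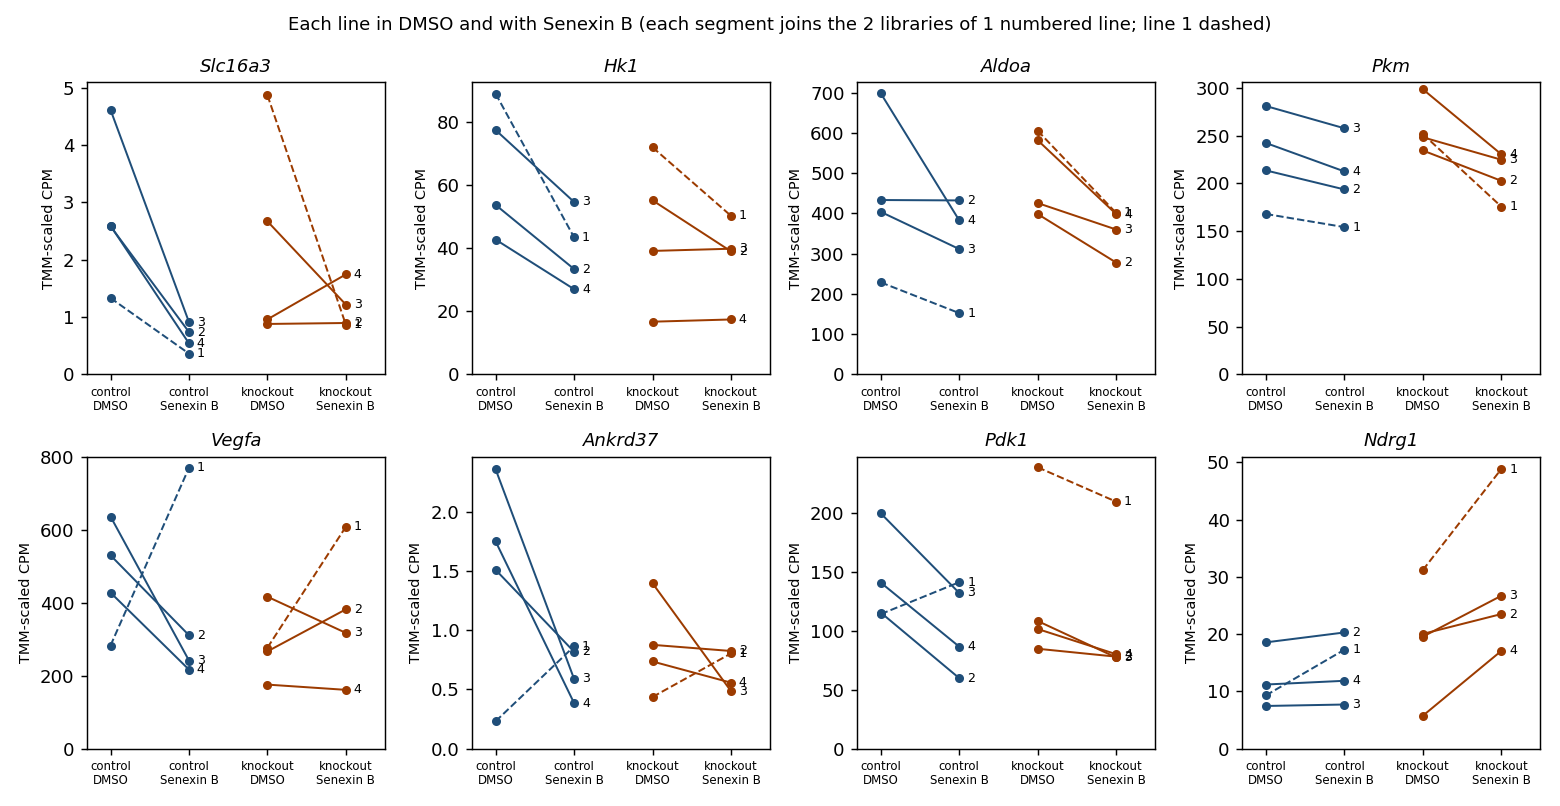
TMM-scaled CPM of Slc16a3, Hk1, Aldoa, Pkm, Vegfa, Ankrd37, Pdk1 and Ndrg1 in the DMSO and the Senexin B library of each line; a segment joins the 2 libraries of a line, blue for control and brown for knockout lines, dashed for line 1. The Slc16a3 segments slope down in all 4 control lines, and the dashed control segment slopes up for Vegfa and Ankrd37 where the other 3 slope down.

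The HIF targets Vegfa and Ankrd37 split the control lines. Vegfa went from 283 to 769.8 CPM in line 1, and from 530.1 to 311, from 636 to 242 and from 428 to 217 CPM in lines 2, 3 and 4. Ankrd37, an ankyrin repeat gene that HIF-1 induces, went from 0.231 to 0.864 CPM in line 1 (4 and 12 counts). It went from 1.51 to 0.819, from 2.36 to 0.589 and from 1.75 to 0.385 CPM in lines 2 to 4 (24, 44 and 25 counts in DMSO, 10, 11 and 5 with Senexin B). Pdk1 and Hif1a had the same pattern, with log2 changes of log2(CPM + 0.5) of 0.31 and 0.44 in line 1 and of -0.94 to -0.59 and -0.91 to -0.28 in the others. Across all 4 lines the log2 changes in the block fit were -0.47 for Vegfa (adjusted p = 0.802 by edgeR) and -0.97 for Ankrd37 (adjusted p = 0.637), and neither was called.

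Control line 1 stood apart from the other controls over the whole transcriptome in its response. Across 14164 genes, which are not independent replicates, its log2 changes correlated with those of control lines 2, 3 and 4 at -0.06, -0.13 and -0.16, whereas those 3 correlated with each other at 0.39 to 0.62. The changes of control line 1 correlated with those of knockout line 1 at 0.59. Knockout line 1 was apart as well. Its changes correlated with those of control lines 2, 3 and 4 at -0.24, -0.19 and -0.17. With knockout lines 2, 3 and 4 they correlated at 0.29, -0.11 and 0.04. Where the other 3 controls moved in 1 direction, line 1 moved in the opposite one in 3614 of 6082 genes (59.4%) and in 13 of 22 members. For the other 7 lines, set against the other 3 of their genotype, the share of genes was 27.9% to 42.5%, highest in knockout line 1. The header of the DMSO file of control line 1 also names another folder than the other 15 files do. Whether handling or the line itself gave this difference was not tested, so values are given with and without it.

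Without control line 1, 3 control lines and 6 libraries remained, and the block fit called 538 of 12976 genes (4.15%) and 3 of 33 members, Slc16a3, Vegfa and Ankrd37. Slc16a3 fell by 2.15 ± 0.32 on the log2 scale (SE; adjusted p = 0.00344 by edgeR), Vegfa by 1.05 ± 0.18 (adjusted p = 0.00709) and Ankrd37 by 1.66 ± 0.38 (adjusted p = 0.0259). An unadjusted p under 0.05 was reached by 12 members that were lower (11.3% of genes) and by 2 that were higher (10.7%). Pdk1 (-0.75, adjusted p = 0.0185), Hk1 (-0.62, adjusted p = 0.0363) and, in the other direction, Slc16a1 (0.72, adjusted p = 0.0409) passed the p limit with less than a 2-fold change. Also lower at an unadjusted p under 0.05 were Slc2a1, Slc2a3, Hk2, Hif1a, Arnt, Bnip3 and P4ha1, with log2 changes of -0.67 to -0.46, and Egln3 was higher (0.76). Egln1 and Vhl, which restrain HIF, had no such p. Slc16a3 and Ankrd37 passed the low-count filter here through their DMSO libraries, where they were higher. This subset was chosen after the values of line 1 were seen, and leaving out another control line instead left 0 members called.

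**Figure D4:**
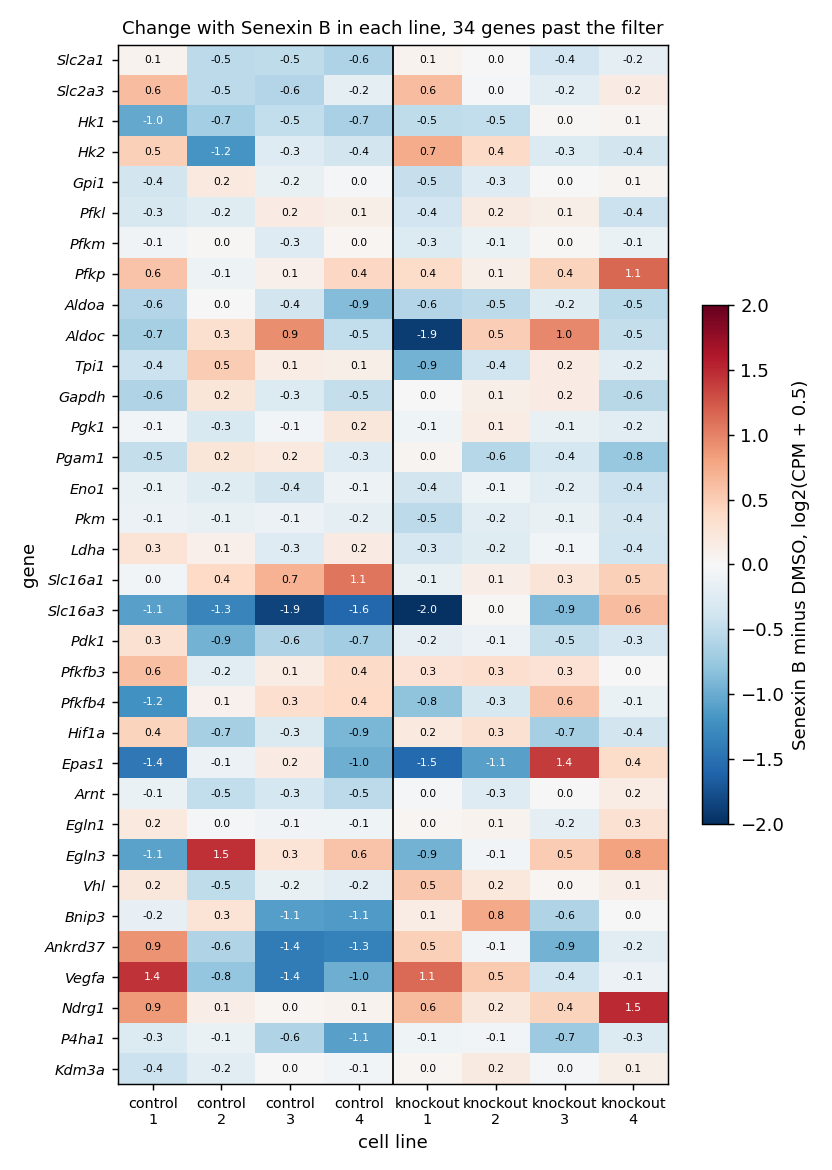
Change with Senexin B in each of the 8 lines (columns) for the 34 members past the filter (rows), as the difference of log2(CPM + 0.5) between the Senexin B and the DMSO library; blue is lower and red higher with the inhibitor. Control line 1 and knockout line 1 are red for Vegfa (1.44 and 1.14) and Ankrd37 (0.90 and 0.48), where control lines 2 to 4 are blue.

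In the Cdk8Δ/ΔVav-Cre lines, where the gene of CDK19, the other kinase that Senexin B inhibits, was not deleted, no member was called. No member and 0 of 13285 genes were called by edgeR without a block (243 genes at an unadjusted p under 0.05, 1.83%), and none by DESeq2. With the line as a block 7 genes (0.0527%) and 0 of 34 members were called. The median log2 change of the members was -0.13 (22 lower, 12 higher), against -0.006 for all genes. In the block fit 5 members were lower at an unadjusted p under 0.05 (5.4% of genes) and 3 higher (4.9%). Lower in all 4 knockout lines were 6 members (10.3% of genes), namely Aldoa, Eno1, Pkm, Ldha, Pdk1 and P4ha1. Pfkp, Pfkfb3, Vhl and Ndrg1 were higher in all 4 (8.89% of genes).

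Pkm, pyruvate kinase, was at 252, 234, 248 and 299 CPM in DMSO and at 176, 203, 225 and 230.4 CPM with Senexin B. All 4 treated libraries lay below all 4 DMSO libraries (0.768% of genes), with a log2 change of -0.31 ± 0.10 (SE; unadjusted p = 0.0152, adjusted p = 0.359 in the block fit of edgeR) and the same size without the block (unadjusted p = 0.0423). Aldoa was at 605, 398, 425 and 582 CPM in DMSO and at 401, 278, 359.7 and 398 CPM with the inhibitor. It was lower in each line, with a log2 change of -0.47 ± 0.10 (SE; adjusted p = 0.203), and of -0.48 ± 0.19 without the block (unadjusted p = 0.0333). Eno1, the enolase of most tissues, was at 222, 254, 306 and 299 CPM in DMSO and at 173, 240.0, 265 and 222 CPM with Senexin B, a log2 change of -0.27 ± 0.097 (SE; unadjusted p = 0.0260, adjusted p = 0.405). Ldha was at 264, 394, 282 and 442 CPM in DMSO and at 209.9, 332, 271 and 336 CPM with the inhibitor. Its log2 change was -0.26 ± 0.097 (SE; unadjusted p = 0.0311, adjusted p = 0.426), while in the control lines it was 0.08. Without the block the unadjusted p was 0.149 for Eno1 and 0.265 for Ldha.

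Among the regulators, Pdk1 was at 239, 84.9, 108 and 102 CPM in DMSO and at 209.9, 78.2, 77.5 and 80.3 CPM with Senexin B. Knockout line 1 held more than any other library in both treatments, and the log2 change was -0.28 ± 0.095 (SE; unadjusted p = 0.0196, adjusted p = 0.386 in the block fit of edgeR). Pfkfb3 was at 127, 152, 174 and 189 CPM in DMSO and at 156, 192, 212 and 190 CPM with the inhibitor, a log2 change of 0.23 ± 0.094 (SE; unadjusted p = 0.0397, adjusted p = 0.456). Pfkp, the platelet-type phosphofructokinase, was at 70.8, 46.9, 65.0 and 148 CPM in DMSO and at 91.8, 51.1, 88.6 and 327 CPM with Senexin B. Line 4 was far above the other 3 in both treatments. The log2 change was 0.53 ± 0.16 (SE; unadjusted p = 0.0127, adjusted p = 0.333). Without the block the unadjusted p was 0.580 for Pdk1, 0.171 for Pfkfb3 and 0.250 for Pfkp.

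Of the HIF genes, Vhl was at 26.0, 29.6, 29.2 and 29.5 CPM in DMSO and at 38.2, 34.2, 29.9 and 32.3 CPM with Senexin B. All 4 treated libraries were above all 4 DMSO libraries (0.888% of genes), with a log2 change of 0.23 ± 0.12 (SE; unadjusted p = 0.0895, adjusted p = 0.555 in the block fit of edgeR). Ndrg1 was at 31.2, 20.05, 19.6 and 5.74 CPM in DMSO and at the higher levels given above with the inhibitor. Its log2 change was 0.69 ± 0.21 (SE; unadjusted p = 0.0116, adjusted p = 0.325), and without the block the unadjusted p was 0.269.

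Slc16a3 was at 4.87, 0.877, 2.67 and 0.957 CPM in the knockout lines in DMSO, and at 0.862, 0.894, 1.21 and 1.74 CPM with Senexin B. Lines 1 and 3, which began high, were lower after treatment, line 2 was level and line 4 was higher. The log2 change was -0.82 ± 0.52 (SE; adjusted p = 0.637 in the block fit of edgeR). Vegfa went from 277 to 608, from 267 to 382, from 416 to 317 and from 176 to 161 CPM in knockout lines 1 to 4, so these lines were split too.

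Taking the 8 lines of both genotypes in 1 fit, 0 of 14164 genes were called without a block (688 genes, 4.86%, at an unadjusted p under 0.05), and DESeq2 called 17 genes and no member. With the line as a block 134 genes were called (0.946%) and 0 of 34 members. The members leaned downward: 27 were lower and 7 higher, with a median log2 change of -0.13 against -0.005 for all genes. An unadjusted p under 0.05 was reached by 9 members that were lower (8.61% of genes) and by 4 that were higher (7.79%). Aldoa passed the p limit with less than a 2-fold change (-0.47 ± 0.096 log2, SE; adjusted p = 0.0266 by edgeR). Slc16a3 had a larger and less even change (-1.41 ± 0.36; adjusted p = 0.0658), and Hk1 a smaller one (-0.48 ± 0.12; adjusted p = 0.0530). Without the block the log2 change of Slc16a3 was -1.54 ± 0.41 (unadjusted p = 0.00171, adjusted p = 0.552), and that of Eno1 was -0.24 ± 0.10 (unadjusted p = 0.0359, adjusted p = 0.962).

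The direction was the same in all 8 lines for 5 members. Aldoa, Eno1, Pkm and P4ha1 had a negative change in every line, although that of Aldoa in control line 2 was only -0.0033 on the log2 scale. Such a change in every line was found for 2.59% of all genes tested, and Ndrg1 was higher in every line, as were 1.96%. In the fit over both genotypes with the block, log2 changes were -0.24 ± 0.072 (SE) for Eno1, -0.23 ± 0.073 for Pkm, -0.40 ± 0.12 for P4ha1 and 0.50 ± 0.16 for Ndrg1, with adjusted p of 0.104 to 0.135 by edgeR. Slc2a1 (-0.26), Pdk1 (-0.38) and Arnt (-0.21) were also lower at an unadjusted p under 0.05, and Pfkp (0.39), Slc16a1 (0.36) and Pfkfb3 (0.23) higher, with adjusted p of 0.123 to 0.270. The 17 glycolytic enzymes summed were lower with Senexin B in 7 of 8 lines; the exception was control line 2. In the control lines the sum was 1693 ± 249 CPM (SD, n = 4) with the inhibitor, and in the knockout lines it was 1814 ± 248 CPM (SD, n = 4).

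**Figure D5:**
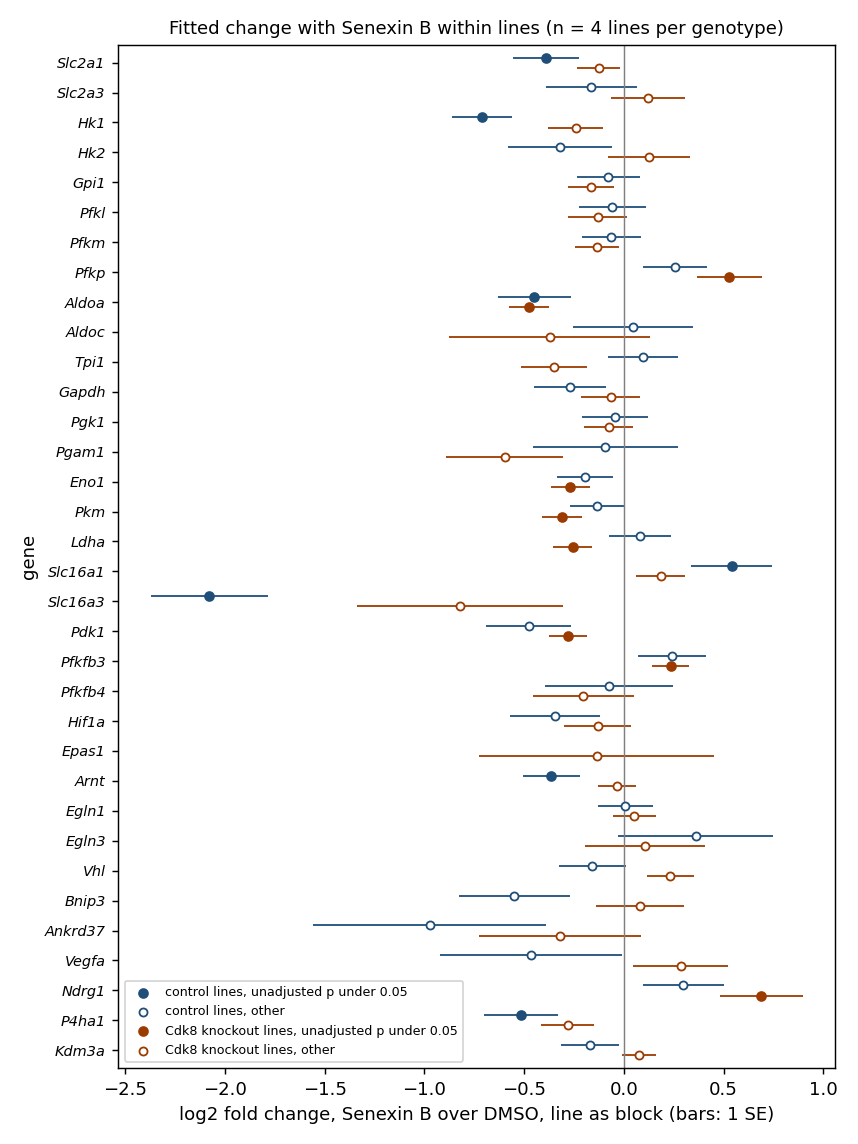
Fitted log2 change with Senexin B for each member with the line as a block, in control lines (blue) and knockout lines (brown), from edgeR; bars are ± 1 SE and filled points have an unadjusted p under 0.05. Slc16a3 in the control lines (-2.08) lies furthest from 0 and is the 1 value that was called.

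The response to Senexin B was not shown to differ between genotypes for any member. The interaction of genotype and treatment called 0 of 14164 genes and 0 of 34 members by edgeR and by DESeq2, with 67 genes (0.473%) and no member at an unadjusted p under 0.05. With the line as a block 2 members had such a p (3.24% of genes did), and no gene was called. The log2 change of Hk1 was higher in the knockout than in the control lines by 0.48 ± 0.20 (SE; unadjusted p = 0.0327, adjusted p = 0.991 by edgeR), and Arnt by 0.34 ± 0.15 (unadjusted p = 0.0496, adjusted p = 0.991). For Slc16a3 the interaction was 1.30 ± 0.65 (unadjusted p = 0.0724, adjusted p = 0.991), so a call in the control lines and none in the knockout lines does not show that the genotypes differ. Without control line 1 the interaction for Vegfa was 1.33 ± 0.33 (adjusted p = 0.172).

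Differences between lines were wide for several of the 34 members past the filter. The neuronal-type glucose transporter Slc2a3 (GLUT3) ranged 531-fold between line means, from 0.11 CPM in knockout line 4 to 56.5 CPM in control line 1. Aldoc ranged 36.7-fold, from 0.63 CPM in knockout line 2 to 23.2 CPM in knockout line 1. The low ends rest on 1 and 2 counts for Slc2a3 and on 7 and 12 counts for Aldoc, in DMSO and with Senexin B, so these ratios are uncertain. Egln3 ranged 22.8-fold, from 2.39 CPM in knockout line 2 to 54.6 CPM in control line 4, and Epas1 10.9-fold, from 0.43 CPM in control line 3 to 4.66 CPM in knockout line 3. Both ends of the Aldoc range were knockout lines. The steadiest were Vhl (1.25-fold), Gpi1 (1.35-fold) and Kdm3a (1.36-fold). For Slc2a3 the order of the control lines was the same in both treatments, although the levels moved. Control lines 1 to 4 had 44.5, 41.0, 29.4 and 3.57 CPM in DMSO and 68.6, 28.4, 19.4 and 3.08 CPM with Senexin B. Line 1 was thus higher and lines 2 to 4 were lower with the inhibitor.

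Hk2, Gpi1, Pfkl, Pfkm, Gapdh, Pgk1, Aldoc, Slc2a3, Pfkfb4, Hif1a, Egln1, Egln3, Bnip3, Ankrd37 and Kdm3a had no unadjusted p under 0.05 in any comparison that used all lines, with or without the block. Gpi1 was at 274 to 391 CPM over the 16 libraries, Egln1 at 46.7 to 82.1, Pfkl at 14.2 to 27.5, Pgk1 at 11.8 to 26.5, Gapdh at 11.3 to 38.9 and Pfkfb4 at 2.16 to 8.61 CPM. Hk2, the hexokinase induced by HIF, was at 6.47 to 27.6 CPM, with the lowest value in control line 2 under Senexin B. Pfkm was at 15.4 to 43.8 CPM, Kdm3a at 68.0 to 111 CPM and Bnip3 at 5.14 to 24.5 CPM.

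Other genes of the same pathways were counted from lists chosen by function, also with earlier results of these data known. Between genotypes in DMSO, of 36 tested among 46 other hypoxia-induced genes 13 were higher and 23 lower, and 1 had an unadjusted p under 0.05 (2.94% of all genes were lower at such a p and 2.38% higher), the mTOR inhibitor Ddit4 (REDD1), with a log2 difference of -0.92 ± 0.23 (SE; adjusted p = 0.897 by edgeR). It was at 101 ± 28.9 CPM in control and 53.1 ± 9.20 CPM in knockout lines (SD, n = 4 each). Of 14 tested among 29 other genes of glycolysis and glucose entry, Slc2a9 was higher (0.79 log2) and the ADP-dependent glucokinase Adpgk lower (-0.36 log2) at such a p, and of 17 tested HIF regulators Hsp90aa1 was higher (0.63 log2) and Siah2 lower (-0.51 log2). None of 12 genes of pyruvate entry into mitochondria, 7 of the pentose phosphate pathway and 7 mitochondrially encoded messenger RNAs had such a p, and no gene of these lists was called.

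With Senexin B in the control lines and the line as a block, 16 of 36 other hypoxia-induced genes were higher and 20 lower, 4 and 2 of them at an unadjusted p under 0.05, which 4.95% of all genes reached as higher and 5.39% as lower. The mitophagy receptor Bnip3l (-0.65 ± 0.17 log2, SE; adjusted p = 0.213 by edgeR) and Insig2 (-0.49 ± 0.17) were lower, and Cxcr4 (0.58 ± 0.20), Rcor2 (0.52 ± 0.18) and Car12 (0.44 ± 0.18) were higher. Of 12 genes of pyruvate entry, pyruvate carboxylase Pcx (-0.65 ± 0.23) and Pdk2 (-0.96 ± 0.35) were lower, and of 7 pentose phosphate genes Pgls (0.57 ± 0.21) and Rpia (0.36 ± 0.14) were higher at such a p. The HIF coactivator Ep300 was lower (-0.40 ± 0.16) among 17 regulators, and Slc2a6 higher (0.86 ± 0.28) among 14 glycolytic genes. All 7 mitochondrially encoded messenger RNAs tested were higher, with a median log2 change of 0.43 and no p under 0.05. No gene of these lists was called with all 4 control lines. Without control line 1, where 4.15% of all genes were called, there were 3 calls among the 36 other hypoxia-induced genes, Hmox1 (heme oxygenase), the oxidative folding enzyme Ero1l and Stc2, which fell by 1.82, 1.25 and 1.22 on the log2 scale (adjusted p of 0.00488, 0.00924 and 0.0112 by edgeR).

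In the knockout lines with the block, 4 of 37 other hypoxia-induced genes were higher and 2 lower at an unadjusted p under 0.05, against 4.9% and 5.4% of all genes. Trf, transferrin, had the lowest p of the 4 (2.00 ± 0.31 log2, SE; adjusted p = 0.164 by edgeR), but it was detected only in knockout lines 3 (0.699 CPM in DMSO and 2.91 with Senexin B) and 4 (2.95 and 11.8 CPM). Stc2 (0.81 ± 0.30) and Prelid2 (0.41 ± 0.16) were also higher. Bnip3l was lower there too (-0.48 ± 0.12 log2, SE; adjusted p = 0.270 by edgeR), as was Fam162a (-0.34 ± 0.096), and the gluconeogenic Fbp1 was lower (-1.18 ± 0.28; adjusted p = 0.239). Over both genotypes with the block Bnip3l passed the p limit with less than a 2-fold change (-0.57 ± 0.10; adjusted p = 0.0132).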

How the data were processed

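RNA was sequenced from 16 samples, 8 cell lines each kept in DMSO and in Senexin B. The authors trimmed single-end 50-base reads with Trimmomatic, mapped them with STAR to GRCm38 (mm10) and deposited raw counts per gene from featureCounts 1.5.1 on the GENCODE M13 annotation. Per the file headers the counting used no option for strand, multiple mapping or overlap. Reads mapping to several places or lying in more than 1 gene were thus dropped. In 15 of the 16 headers the path names a folder called modified and in 1 it names another. Samples were grouped by the labelled genotype and treatment, and the labelled replicate number was taken as the line. Whether replicates of a group came from separate animals is not given in the sources used here, so p-values measure the spread between these lines.

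Counts were fitted in R 4.3.3 with edgeR 4.0.16 (TMM, filterByExpr, robust quasi-likelihood), with only the libraries of the groups compared, all genes together and Benjamini-Hochberg adjustment over all of them. A gene was called where the adjusted p was below 0.05 and the log2 change beyond 1 in size. Changes within a line used log2(CPM + 0.5). Same-numbered DMSO and Senexin B libraries deviated together, so the number pairs them within a genotype. Correlations over 14164 genes were 0.57 to 0.78 in control and 0.77 to 0.87 in knockout lines. Across genotypes the fits as designed did not pair lines by number. The script was tested on simulated data. Alternatives were DESeq2 1.42.0, RLE factors, no filter, all libraries in 1 fit, summed lines, the block and leaving out each library; leaving lines out of the block fit, and DESeq2 with the block, were chosen after seeing the data. The members and lists were chosen with earlier results of these data known. Given in full are members with an unadjusted p under 0.05 or without overlap between groups. Library totals of 13145876 to 18349425 counts limit members under 50 counts most. Stretches shared between genes and promoters were read from the reference annotation of GRCm38 and from RefSeq.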

Additional observations from a re-analysis of the deposited data

Results flagged for a closer look

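In 136 groups of 4 libraries, 34 members in each of 4 groups, the highest or lowest library was set against the others by Dixon's test, which flags about 1 group in 20 by chance. It singled out a library in 11 of these groups, and 6 of the 16 libraries were involved. Knockout line 1 was apart with its Pfkm in DMSO (42.7 CPM, others 15.4 to 19.7) and with Senexin B (35.3 CPM, others 15.6 to 17.8). The same line was apart for Pdk1 in DMSO (239 CPM, others 84.9 to 108) and with Senexin B (209.9 CPM, others 77.5 to 80.3), and it had the lowest Vhl in DMSO (26.0 CPM, others 29.2 to 29.6).

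Control line 4 was apart for the hydroxylase Egln3, with 43.9 CPM in DMSO (others 2.08 to 5.38) and 65.3 CPM with Senexin B (others 2.30 to 6.63), and for Hif1a in DMSO (320.0 CPM, others 134 to 150.4). Knockout line 4 had the highest Pfkp with Senexin B (327 CPM, others 51.1 to 91.8). With Senexin B control line 1 had the highest Vegfa (769.8 CPM, others 217 to 311) and the lowest Pfkfb3 (148 CPM, others 178 to 181). The values of Pfkm, Pdk1 and Egln3 stood apart in both libraries of their line. The causes were not tested.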

How the results depend on the processing

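Of 700 alternative values for the log2 changes of members given in full, 694 kept their direction and side of the limits, 4 passed the limits only in the alternative (Slc16a3, with the block) and 2 reversed. In knockout lines with Senexin B, leaving out 1 replicate gave Pfkp log2 changes of -0.096 (without the treated library of line 4) to 1.20 and Pdk1 changes of -0.77 to 0.18 (without the DMSO library of line 1). The counts of calls were stable under RLE factors.

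Members called were 0 in every comparison as designed. In control lines with Senexin B there was 1 of 33 with the replicate block, where 45 of 12989 genes were called. There were 3 of 33 with the block without control line 1 (538 of 12976 genes) and 1 of 37 by DESeq2 with the block (180 of 27318 genes). Over both genotypes there was 1 of 37 by DESeq2 with the block, Slc16a3, where 183 of 29942 genes were called. There was also 1 of 34 with the block without line 1 of either genotype, Ankrd37, where 361 of 14073 genes were called.

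Genes called between genotypes in DMSO were 1 as designed, 32 by DESeq2, 0 with the replicate block and 0 to 0 without a replicate. With Senexin B they were 0 as designed, 10 by DESeq2, 1 without the filter and 1 with all 16 libraries in the fit. For Senexin B in control lines they were 0 as designed, 19 by DESeq2, 3 without the filter, 45 with the block, 180 by DESeq2 with the block, and 538, 0, 9 and 28 with the block without line 1, 2, 3 or 4. In knockout lines they were 0 as designed, 7 with the block, 77 by DESeq2 with the block, and 31, 0, 2 and 0 with the block without line 1, 2, 3 or 4. Over both genotypes they were 0 as designed, 17 by DESeq2, 0 to 5 without a replicate, 134 with the block, 183 by DESeq2 with the block, and 131 and 361 with the block without control line 1 or line 1 of both genotypes. For the interaction, 2 genes were called with the block without line 1 of both genotypes. Across genotypes, correlations of deviations between same-numbered lines were -0.15 to 0.26 in DMSO and -0.14 to 0.42 with Senexin B. Between lines of different numbers they were -0.29 to 0.29 and -0.35 to 0.25. The changes with Senexin B of control line 1 and knockout line 1 correlated at 0.59, as given above. Whether same-numbered lines share more than a number was not tested. The block changed no member's call between genotypes. Members under 50 counts, such as Epas1, Pgam1 and Ankrd37, are limited by depth.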
